A study of Mus musculus with 16 samples.

Results

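The transcripts described here are those of 10 dual-specificity phosphatase (DUSP) genes that act on MAP kinases, namely Dusp1, Dusp2, Dusp3, Dusp4, Dusp5, Dusp6, Dusp7, Dusp8, Dusp10 and Dusp16. They were taken by their symbols from a table of read counts that lists 47069 mouse genes, and all 10 were found. The table came from macrophages grown out of bone marrow (BMMs). The mice were C57BL/6 animals aged 8 to 10 weeks, and the cells were cultured with L929-conditioned medium, harvested on day 7 and primed overnight with IFNγ at 10 ng/mL. The cells were then activated for 1 hr with Salmonella LPS at 100 ng/mL together with immune complexes of ovalbumin and IgG (LPS/ICs). The comparison was between activation in the presence of DAPT at 25 μM, a γ-secretase inhibitor (GSI) that blocks the cleavage of Notch receptors, and activation with the vehicle DMSO at 0.01%. The study's methods place GSI or DMSO on the cells overnight ahead of the activation, but a figure legend for another experiment of the study gives a shorter pretreatment, and the labels do not say whether the cells given DAPT also received DMSO. The comparison asked how the response to LPS/ICs changes when Notch signaling is inhibited. Every library came from primed and activated cells, so the values show how GSI changed transcript levels after activation and not how activation itself changed them. γ-secretase also cleaves membrane proteins other than Notch receptors, and DAPT was the only inhibitor in these libraries.

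Each group held 2 replicates, and each replicate 4 columns of counts that were taken as sequencing runs and summed. The 4 libraries held 42694655 to 56932059 counts, and 3 counts in a library corresponded to 0.0527 to 0.0703 counts per 1000000 (CPM) of the unadjusted library total; all other CPM values use TMM-adjusted totals. Runs of 1 replicate differed by no more than sampling noise, with a chi-square per degree of freedom of 1.01 to 1.03, whereas the replicates of a group differed well beyond it, at 14.7 in DMSO and 16.6 in GSI. The labels do not say whether the replicates came from separate cultures or mice, so the p-values measure only the spread between these libraries, which may be technical. In bulk RNA, fewer cells of a type and less RNA per cell cannot be told apart. All 8 macrophage markers examined were present, and their summed level was 12278 and 12485 CPM in DMSO but 9489 and 10414 CPM in GSI. The sum is dominated by Lyz2, Csf1r and Cd14; 6 of the 8 fell, Mertk rose (log2 fold change 0.64) and Cd68 (0.18, FDR 0.0616) did not pass the test. The 4 neutrophil, T cell, B cell and erythroid lists each summed to at most 1.43 CPM in any library, and the 5 mast cell and basophil markers were at 0. The 5 dendritic cell markers summed to 186 and 179 CPM in DMSO and to 113 and 115 CPM in GSI, nearly all of it from Clec9a, with Siglech at 0. The part of these marker differences in the results for the DUSP genes was not tested.

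MAP kinases are switched on when a kinase phosphorylates a threonine and a tyrosine in their activation loop, and DUSPs switch them off by removing both phosphates. Members that carry a MAP kinase-binding domain are called MAP kinase phosphatases and fall into a nuclear, growth factor- and stress-inducible class (Dusp1, Dusp2, Dusp4 and Dusp5), a cytoplasmic class that prefers ERK (Dusp6 and Dusp7) and a class that prefers JNK and p38 (Dusp8, Dusp10 and Dusp16), while Dusp3 is a small atypical member without that domain. Several of them are themselves immediate-early genes of the MAP kinase response, and in macrophages Dusp1 is best known for ending p38 and JNK signaling after LPS. Reads count transcripts and give no measure of phosphatase protein or of MAP kinase phosphorylation.

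The sequence before the transcription start is shown for the 3 members with the highest levels per length, Dusp1, Dusp5 and Dusp2, and for Dusp6, the lowest. The bases are those from 250 to 51 before the RefSeq start on GRCm38.p6, read 5′ to 3′ on the strand of the gene. The Dusp1 stretch is chr17:26508523-26508722 on the minus strand, that of Dusp2 is chr2:127335909-127336108 on the plus strand, that of Dusp5 is chr19:53528895-53529094 on the plus strand and that of Dusp6 is chr10:99262981-99263180 on the plus strand. Capitals mark matches, on either strand, to the motifs named after the sequences.
Dusp1: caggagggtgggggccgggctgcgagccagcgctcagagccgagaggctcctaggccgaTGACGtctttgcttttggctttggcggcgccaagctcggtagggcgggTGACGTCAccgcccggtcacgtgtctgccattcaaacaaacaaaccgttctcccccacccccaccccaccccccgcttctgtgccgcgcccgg
Dusp2: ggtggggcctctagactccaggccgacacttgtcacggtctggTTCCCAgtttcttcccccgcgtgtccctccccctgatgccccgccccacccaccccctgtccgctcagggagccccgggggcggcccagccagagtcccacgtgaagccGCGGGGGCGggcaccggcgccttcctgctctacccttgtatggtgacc
Dusp5: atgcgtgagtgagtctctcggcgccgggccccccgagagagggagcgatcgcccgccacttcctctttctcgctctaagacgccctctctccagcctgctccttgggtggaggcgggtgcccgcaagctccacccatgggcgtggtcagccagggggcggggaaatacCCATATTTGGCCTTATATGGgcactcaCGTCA
Dusp6: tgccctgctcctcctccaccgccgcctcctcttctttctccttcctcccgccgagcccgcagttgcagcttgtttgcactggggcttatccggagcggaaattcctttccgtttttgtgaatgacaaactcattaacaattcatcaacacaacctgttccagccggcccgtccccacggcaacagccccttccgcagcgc

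Motifs were searched on both strands in the 250 bases before the start, in which 9 of the 10 members had an entry (Dusp4 had none). The cAMP response element TGACGTCA, the full site bound by CREB and ATF proteins, lay 143 to 136 bases before the start of Dusp1 and at 2 places in Dusp8, 107 to 100 and 63 to 56 bases before its start. It was present in 1.55% of all 32851 promoter windows. The shorter core TGACG, which is contained in that element on both strands, occurred in Dusp1, Dusp5, Dusp8 and Dusp16, against 17.8% of all windows. Dusp5 alone held the CArG box bound by serum response factor, in 2 adjacent copies 82 to 73 and 72 to 63 bases before the start, and this motif was in 1.47% of all windows. Dusp2 held the EGR motif GCGGGGGCG (2.57% of windows) 98 to 90 bases before its start, and the RBPJ core TGGGAA (21.6% of windows) 207 to 202 bases before it. The bases after the RefSeq start of Dusp8 and Dusp16 were found in 0 of 2 and 0 of 7 of their GENCODE transcripts, so motif positions in these genes rest on the RefSeq start alone. The AP-1 motif TGANTCA, the κB motif and the letters TATAAA were in 0 of the 9 windows, against 6.75%, 7.25% and 12.4% of all windows. The Dusp6 window held none of the searched motifs. A match describes the letters only, and no binding was measured.

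With GSI, 6 of the 10 DUSP transcripts fell and none rose. Dusp2, Dusp5, Dusp1, Dusp7, Dusp16 and Dusp4 had a false discovery rate (FDR) under 0.05 in edgeR (quasi-likelihood test, Benjamini-Hochberg adjusted over 13211 genes). Over all tested genes, 40.8% passed this threshold, 21.9% as lower and 19% as higher with GSI. The remaining members had no unadjusted p under 0.05 in this test either. DESeq2 called 5 members, all lower, without Dusp4, beside 28.4% of all genes to which it gave an adjusted p. The median log2 fold change of the 10 members was −0.31, beside 0.01 over all tested genes. Dusp2 was the 1 member that also passed an absolute log2 fold change of 1.5, a size that 2.91% of tested genes reached together with the FDR. The libraries of the groups did not overlap for 7 members, the 6 named and Dusp10, each time with GSI lower, and did not overlap for 70.6% of all tested genes. By class, 4 of 4 nuclear members fell (median log2 fold change −0.82; 3 of 4 in DESeq2), as did 1 of 2 cytoplasmic ERK members (−0.39) and 1 of 3 JNK and p38 members (−0.14), while the atypical Dusp3 had a value of 0.01.

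**Figure D1:**
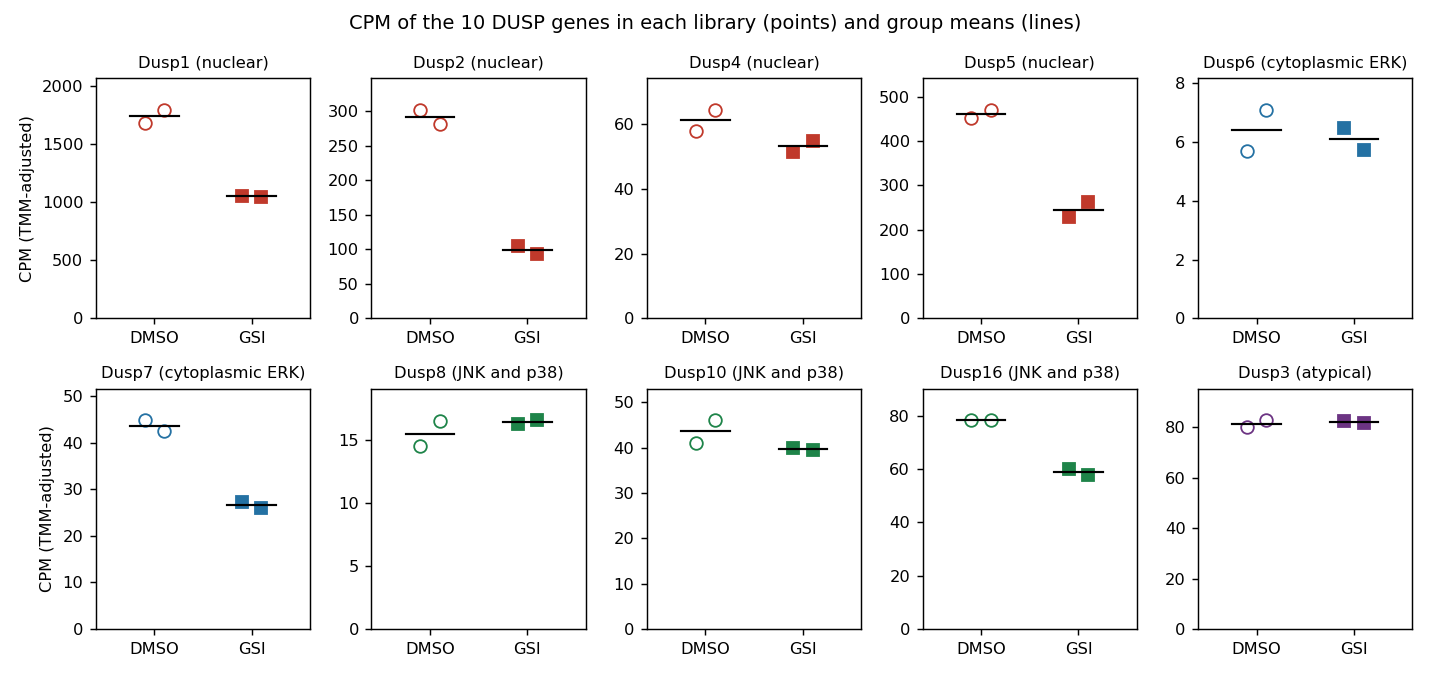
CPM of each DUSP gene in the 2 DMSO libraries (open circles) and the 2 GSI libraries (filled squares), with a line at each group mean and every axis starting at 0. The GSI libraries lie below both DMSO libraries for 7 genes and overlap them for Dusp3, Dusp6 and Dusp8.

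Among the nuclear members, Dusp2, also known as PAC-1 and described as a phosphatase of activated leukocytes, changed most. Dusp2 stood at 302 and 282 CPM with DMSO and at 105 and 92.4 CPM with GSI. Both GSI libraries were thus far below both DMSO libraries, by much more than the replicates of either group differed. The means were 292 ± 14.4 CPM (SD, n = 2) in DMSO and 98.6 ± 8.78 CPM (SD, n = 2) in GSI. The log2 fold change of Dusp2 was −1.57 (SE 0.0774, 95% interval −1.73 to −1.40), a 2.96-fold lower level, with an FDR of 6.46e-12 in edgeR's quasi-likelihood test, and 1.95% of tested genes had a more negative value. Without GSI replicate 2 the log2 fold change of Dusp2 was −1.48, below the size threshold but still past the FDR.

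Dusp5, a nuclear phosphatase specific for ERK, stood at 452 and 471 CPM in DMSO and at 229 and 262 CPM in GSI. The groups were apart, and the spread was larger between the GSI libraries than between the DMSO libraries (means 462 ± 13.6 and 246 ± 23.1 CPM, SD, n = 2 each). The log2 fold change of Dusp5 was −0.91 (SE 0.0766, 95% interval −1.07 to −0.75), which left 53.2% of the DMSO level, with an FDR of 9.89e-09 in edgeR's quasi-likelihood test.

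Dusp1, also known as MKP-1, which acts on p38, JNK and ERK, was the most abundant member in every library. Its level was 1682 and 1796 CPM in DMSO and 1053 and 1047 CPM in GSI. The GSI libraries were close to each other and lay well below both DMSO libraries. The log2 fold change of Dusp1 was −0.73 (SE 0.0741, 95% interval −0.88 to −0.57), a 1.66-fold lower level, with an FDR of 1.4e-07 in edgeR's quasi-likelihood test. In absolute terms this was the largest loss of reads in the family, from a mean of 1739 ± 80.8 to 1049.6 ± 4.37 CPM (SD, n = 2 each).

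Dusp4, also known as MKP-2, a nuclear phosphatase close to Dusp1 in structure, showed a much smaller difference. It stood at 57.9 and 64.6 CPM in DMSO and at 51.4 and 55.0 CPM in GSI. The groups did not overlap, but the lower DMSO value and the higher GSI value were closer to each other than the replicates of either group. The log2 fold change of Dusp4 was −0.20 (SE 0.0767, 95% interval −0.36 to −0.04) with an FDR of 0.0396 in edgeR's quasi-likelihood test. This call was lost in DESeq2 (adjusted p = 0.0738), without a filter on low counts (FDR 0.0530), without DMSO replicate 2 (log2 fold change −0.12, FDR 0.359) and without GSI replicate 1 (−0.16, FDR 0.175). With all 4 libraries, the adjusted p of Dusp4 ran over the alternatives from 0.000106 with runs as separate samples to 1.00 in a test against 1.5-fold.

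Of the cytoplasmic members, Dusp7 fell and Dusp6 did not pass the test. Dusp7, also known as MKP-X, which dephosphorylates ERK in the cytoplasm, stood at 44.8 and 42.6 CPM in DMSO and at 27.3 and 26.0 CPM in GSI. The groups were far apart relative to their spread, and the log2 fold change of Dusp7 was −0.71 (SE 0.0768, 95% interval −0.87 to −0.55, 1.64-fold lower, FDR 2.91e-07 in edgeR's quasi-likelihood test). Dusp6, also known as MKP-3 and widely used as a readout of ERK activity, stood at 5.69 and 7.10 CPM in DMSO and at 6.50 and 5.73 CPM in GSI. Both GSI values of Dusp6 lay between the DMSO values. Its log2 fold change was −0.08 (SE 0.128, 95% interval −0.34 to 0.19) with an FDR of 0.674, and the interval of its GSI to DMSO ratio ran from 0.789 to 1.14. Dusp6 rested on 245 to 403 counts per library, the fewest of the 10 members, and its interval was the widest. A change in Dusp6 of the size seen for Dusp7 lies outside this interval, whereas one of the size seen for Dusp4 lies inside it.

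Of the members that prefer JNK and p38, Dusp16 fell and the others did not pass the test. Dusp16, also known as MKP-7, a phosphatase of JNK, stood at 78.3 CPM in each DMSO library and at 60.03 and 57.7 CPM in GSI. The DMSO values were nearly equal, and both GSI values lay below them by far more than the GSI replicates differed. Dusp16 was 1.33-fold lower with GSI (log2 fold change −0.41, SE 0.0707, 95% interval −0.56 to −0.26, FDR 9.45e-05 in edgeR's quasi-likelihood test). Dusp10, also known as MKP-5, which acts on p38 and JNK, stood at 41.1 and 46.0 CPM in DMSO and at 40.03 and 39.4 CPM in GSI. Its GSI libraries were below both DMSO libraries by less than the DMSO libraries differed, and the log2 fold change of Dusp10 was −0.14 (95% interval −0.30 to 0.03, FDR 0.170). Dusp8 stood at 14.5 and 16.5 CPM in DMSO and at 16.3 and 16.5 CPM in GSI. The Dusp8 values overlapped, with a log2 fold change of 0.08 (95% interval −0.11 to 0.27, FDR 0.528) and a ratio whose interval ran from 0.924 to 1.21.

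Dusp3, also known as VHR, an atypical phosphatase that acts on ERK and JNK, gave the tightest estimate. It stood at 80.0 and 82.7 CPM in DMSO and at 82.5 and 81.8 CPM in GSI. Both GSI values lay between the DMSO values, and the log2 fold change of Dusp3 was 0.01 (SE 0.0697, 95% interval −0.13 to 0.16, FDR 0.893). The interval of the Dusp3 ratio, 0.913 to 1.12, leaves out the ratio estimated for each of the 6 members that fell.

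**Figure D2:**
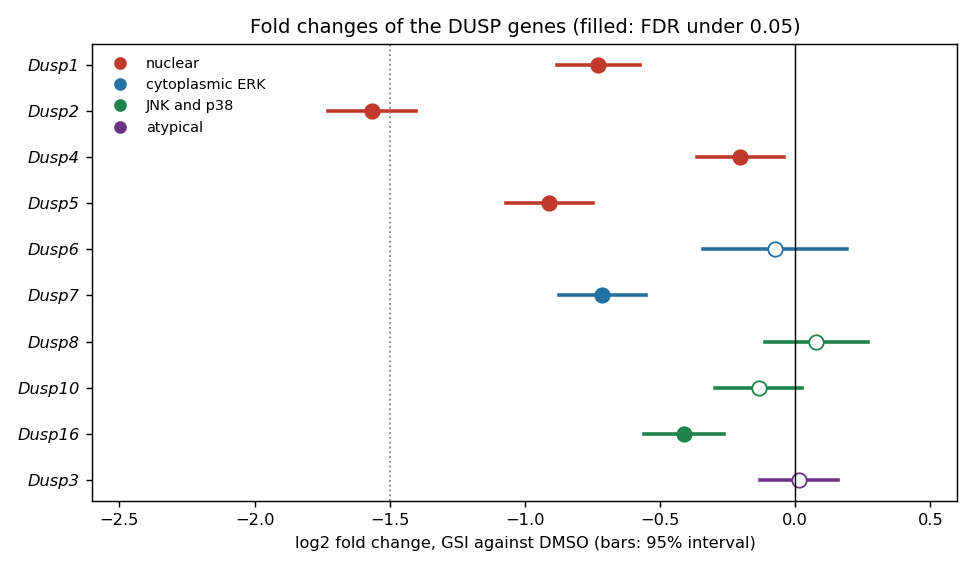
Log2 fold change of each DUSP gene, GSI against DMSO, with its 95% interval from edgeR's quasi-likelihood fit. Filled points had an FDR under 0.05, the solid line marks no change and the dotted line marks −1.5, which the Dusp2 estimate alone passed.

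Levels of different genes were compared as CPM per kilobase (kb) of exon, with all exons of a gene merged. On this scale the DMSO libraries put Dusp1 first at 525 CPM per kb, followed by Dusp5 at 187, Dusp2 at 146, Dusp4 at 22.3, Dusp3 at 17.4, Dusp10 at 14.3, Dusp7 at 13.0, Dusp16 at 10.0, Dusp8 at 3.18 and Dusp6 at 2.04 CPM per kb. Dusp1 was therefore 257 times as abundant per length as Dusp6, and the nuclear, inducible members took the first 4 places. In GSI the order was the same, from 317 CPM per kb for Dusp1 through 99.4 for Dusp5, 49.2 for Dusp2, 19.4 for Dusp4, 17.5 for Dusp3, 13.1 for Dusp10, 7.95 for Dusp7, 7.55 for Dusp16 and 3.37 for Dusp8 to 1.95 for Dusp6. No neighbours in either order had overlapping libraries. With the length of the longest transcript in place of merged exons, Dusp16 moved ahead of Dusp7 in both groups, and in DMSO the libraries of Dusp5 and Dusp2 and those of Dusp10 and Dusp16 then overlapped.

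The spacing within this order changed although the order did not. Per length, Dusp1 was 3.61 times as abundant as Dusp2 in DMSO and 6.44 times as abundant in GSI, whereas its ratio to Dusp5 went from 2.81 to 3.19. Dusp2 was at 0.780 of the Dusp5 level in DMSO and at 0.495 in GSI. Dusp4 was at 0.153 of the Dusp2 level in DMSO and at 0.395 in GSI. Dusp1 made up 55.1% and 56.6% of the summed level per length of the 10 members with DMSO and 59.6% and 58.6% with GSI. The summed CPM of the 10 members was 2758 and 2887 in DMSO and 1671 and 1683 in GSI. Without Dusp1 it was 1076 and 1091 CPM in DMSO and 618 and 637 CPM in GSI, so the fall was not that of Dusp1 alone. These ratios and sums are descriptions, with no test of their own.

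**Figure D3:**
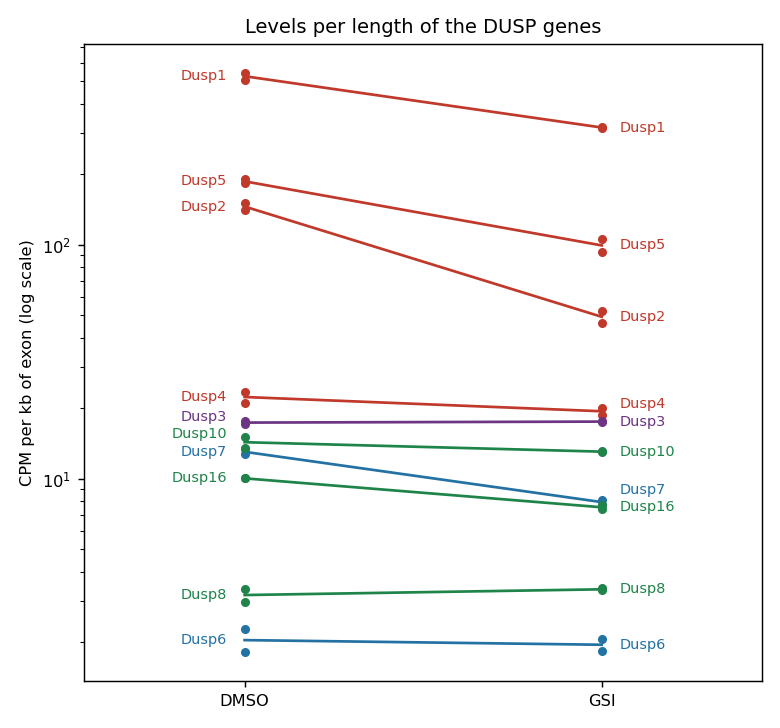
Level per length of each DUSP gene in DMSO and GSI, in CPM per kb of merged exon on a log scale, with points for the 2 libraries of each group and lines between the group means. Dusp1, Dusp5 and Dusp2 lie above the rest in both groups, and the line of Dusp2 is the steepest.

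The members lie on 10 different chromosomes of GRCm38, and all are protein-coding. The most responsive, Dusp2 (ENSMUSG00000027368, chr2:127336159-127338376, plus strand), spans 2218 bases, and 2.64% of the protein-coding genes tested were shorter. Dusp5 (ENSMUSG00000034765) lies at chr19:53529109-53542431 on the plus strand, Dusp7 (ENSMUSG00000053716) at chr9:106368632-106375724 on the plus strand and Dusp16 (ENSMUSG00000030203) at chr6:134715468-134792625 on the minus strand. Dusp1 (ENSMUSG00000024190) is annotated at chr17:26505590-26562128 on the minus strand. This span contains the Dusp1 stretch printed above, which lies before the RefSeq start but not before the outermost annotated start. Of the members that fell, Dusp7 spans 7093 bases, Dusp1 spans 56539 and Dusp16 spans 77158. Of those that did not pass the test, Dusp6 (ENSMUSG00000019960, chr10:99263231-99267489, plus strand) spans 4259 bases and Dusp10 spans 62335. The median of the protein-coding genes tested was 23726 bases. A relation between gene length and the response to GSI was not tested.

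The pentamer ATTTA, the core of the AU-rich elements that shorten the life of many immediate-early mRNAs, was counted in the 3′ untranslated region of the longest coding transcript. Dusp1 and Dusp2 each held 4 copies, which is 5.80 and 6.88 per kb of this region, beside a median of 1.31 per kb over 11571 protein-coding tested genes. Of the other members that fell, Dusp16 held 3 copies (1.24 per kb), Dusp4 held 2 (1.80), Dusp5 held 1 (0.90) and Dusp7 held 0, so ATTTA was not shared by all of them. Among the members that did not pass the test, Dusp8 held 5 copies (2.11 per kb), Dusp3 4 (1.11), Dusp10 3 (2.70) and Dusp6 1 (0.84). At least 1 copy was found in 69.3% and at least 3 copies in 38% of those protein-coding genes. The longer element TTATTTATT occurred in Dusp1 (2 copies) and Dusp8 (1 copy) among the members, and in 7.95% of those genes. These counts describe the sequence only, since mRNA stability was not measured.

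No exon of a member overlaps an exon of another gene on its own strand in the annotation. On the opposite strand Dusp1 shares 11 bases with Ergic1, which had 2346 to 3157 counts per library against at least 50888 for Dusp1, and Dusp3 shares 604 bases with Gm20659, which had at most 5 counts. Dusp5 and Dusp8 share 547 and 66 bases with predicted genes that are not among the rows used here, and the strand setting of the counting is not given in the sources used here.

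The other genes of the pathway were read from lists, each set beside the 40.8% of all tested genes that passed the FDR. Of the MAP kinases, the family to which the substrates of these DUSPs belong, 9 of 13 were tested, of which 4 fell and 2 rose (66.7% called, median log2 fold change −0.10). Mapk6, the atypical kinase ERK3, fell from 400.1 to 259 CPM (log2 fold change −0.63) and Mapk13, a p38 isoform, from 2.73 to 1.91 CPM (−0.51). Mapk11, another p38 isoform, rose from 0.698 to 1.495 CPM (log2 fold change 1.09) and Mapk7, or ERK5, from 13.9 to 19.2 CPM (0.46). Of the kinases that the DUSPs are best known for acting on, and chosen after their values were seen, Mapk3 (ERK1) had a log2 fold change of −0.05 and Mapk8 (JNK1) one of −0.10, neither past the test, while Mapk9 (JNK2) fell by 0.19 and Mapk14 (p38α) fell by 0.26 on the log2 scale.

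Upstream, the list of MAP2K and MAP3K kinases also held Tab1, Tab2 and Tab3, adaptors of the kinase TAK1. Of its 29 genes 27 were tested, of which 11 fell, Tab2 among them, and 2 rose, Tab1 and Map2k2 (48.1% called, median log2 fold change −0.16; the TAB genes and Map2k2 were singled out after their values were seen). The largest changes were those of Map3k5, the stress-activated kinase ASK1 (log2 fold change −0.74, 28.4 to 17.0 CPM), Map3k12 (−0.64), Map2k6 (−0.53) and Map2k3 (−0.45), the last 2 being the activating kinases of p38. Of the MAPK-activated kinases downstream, 10 of 11 were tested, of which 4 fell and 2 rose (60% called, median −0.10). Rps6ka5, or MSK1, which phosphorylates CREB and histone H3, fell from 13.7 to 8.33 CPM (log2 fold change −0.72), Rps6ka3, or RSK2, from 142 to 92.0 CPM (−0.63) and Mapkapk3 by 0.51 on the log2 scale, and Mapkapk5 rose by 0.47.

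Among other brakes on Ras and ERK signaling more genes fell than rose, as among the MAP2K, MAP3K and TAB genes (11 fell and 2 rose). Of 19 Sprouty, Spred and further inhibitors of Ras and ERK signaling, 15 were tested, of which 8 fell and 2 rose (66.7% called, median log2 fold change −0.32, beside −0.31 for the 10 DUSP members). Spred2, which blocks the activation of Raf by Ras, fell from 58.1 to 28.1 CPM (log2 fold change −1.05) and Dok2, an adaptor that dampens Ras signaling, from 88.0 to 47.5 CPM (−0.89). Rasa1, a GTPase-activating protein of Ras (log2 fold change −0.50), and Spry2, a Sprouty protein (−0.46), fell less. Of 9 other phosphatases that act on MAP kinases, 7 were tested, of which Ppm1d (log2 fold change −0.43) and Ptpn7 (−0.30), both of which dephosphorylate p38, fell and Ppp2r1a, a scaffold subunit of PP2A, rose (0.20), with 42.9% called and a median of −0.03.

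Transcripts commonly read as output of ERK did not move together. Of 15, 13 were tested, of which 7 fell and 3 rose (76.9% called, median log2 fold change −0.20). Fosb, an AP-1 subunit, fell from 139.5 to 30.1 CPM (log2 fold change −2.21), Myc from 47.3 to 18.3 CPM (−1.37), Etv5, an ETS factor induced by ERK, from 19.6 to 10.05 CPM (−0.96) and Egr3 from 42.7 to 24.2 CPM (−0.82). The 3 that rose, named after their values were seen, were Egr1 (log2 fold change 0.64, 747 to 1163 CPM), Ier3 (0.59) and Ier2 (0.25). Spry2 is in this list and in that of the brakes.

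The DUSP genes outside the 10, most of which encode atypical phosphatases whose main substrates are not MAP kinases, were read from a list of 17, of which 12 were tested, 2 fell and 3 rose (41.7% called, median log2 fold change −0.05). Dusp14 fell from 1.84 to 0.819 CPM (log2 fold change −1.17). Dusp28 rose from 10.4 to 19.4 CPM (0.91), Dusp23 from 9.41 to 16.3 CPM (0.79) and Dusp18 by 0.67 on the log2 scale. None of these 4 had a group mean above 19.4 CPM, well below Dusp1, Dusp5 and Dusp2. Without GSI replicate 2, 3 of these other DUSP genes were called in place of 5, and without DMSO replicate 1, 1 of the other phosphatases in place of 3. The share of all tested genes called fell as well, from 40.8% to 35.6% and 30.7% in these fits.

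**Figure D4:**
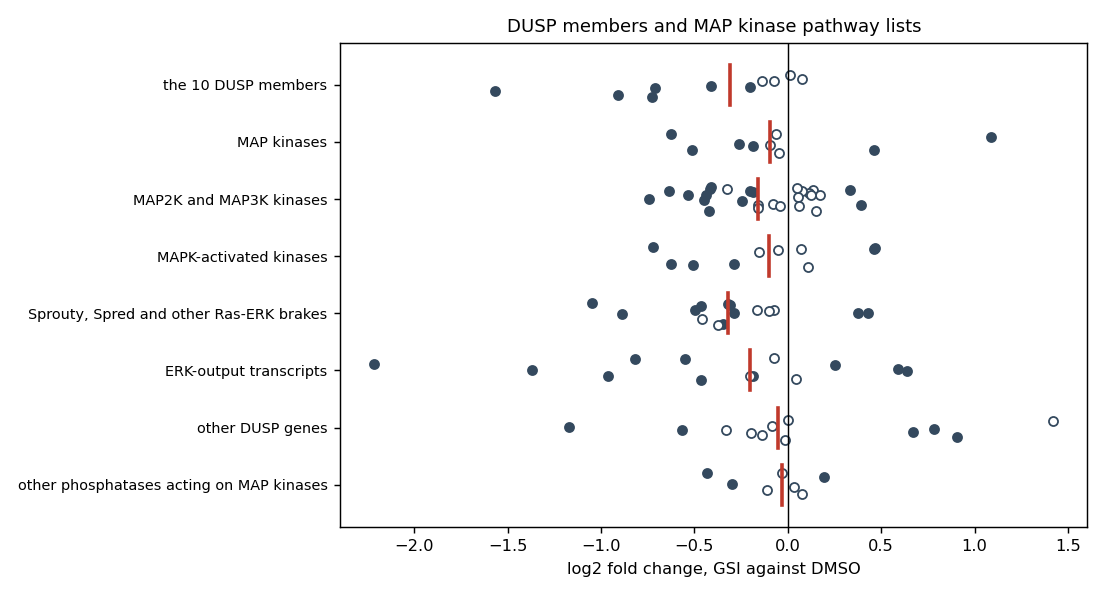
Log2 fold changes, GSI against DMSO, of the 10 DUSP genes and of the tested genes of each pathway list (filled, FDR under 0.05; open, not past it), with a red bar at the median of each list. No DUSP member has a filled point above 0, whereas every other list has filled points on both sides of 0.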

How the data were processed

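Strand-specific libraries of poly(A) RNA from 2 DMSO and 2 GSI replicates were read on an Illumina NextSeq. The authors trimmed adapters with Trimmomatic, aligned reads with STAR (2.5.0a in the submitters' processing notes) and counted reads per gene with HTSeq on mm10, the build also called GRCm38; the notes list mm9 too, and the HTSeq mode and strand setting are not given in the sources used here. The deposited values are raw counts per gene for 4 columns of each replicate, without normalization. All columns were used and summed per replicate, since they differed by no more than sampling noise. The 3-count floor covers counting error only.

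Groups were compared in edgeR 4.0.16 (R 4.3.3) by the quasi-likelihood test, with group alone in the model, TMM factors and the default filter of filterByExpr. P-values of the 13211 genes kept were adjusted by the Benjamini-Hochberg method. The thresholds were an FDR under 0.05 and, for size, an absolute log2 fold change of 1.5. The standard error was the log2 fold change divided by the square root of F, and CPM used TMM-adjusted library sizes. The scripts were tested on simulated data.

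GENCODE M21 (GRCm38) gave positions and transcripts and held 98.9% of the table's gene IDs. Promoter sequences came from RefSeq (GRCm38.p6). The 50 bases next to the start were searched but not printed, because annotated exons of Dusp1 and Dusp5 reach into them. The members, the pathway lists and the marker lists were chosen with earlier results of these data known. The genes named were all members and, in each list, up to 4 with the largest change among those past the FDR, with exceptions marked. The alternatives were DESeq2 1.42.0, edgeR's likelihood ratio test, glmTreat against 1.5-fold, RLE factors or none, no filter on low counts, a minimum of 10 counts per library, a replicate block, each of the 16 runs as its own sample, and each library left out in turn. Restricting the fit to genes without exons on the other strand was added after seeing the data.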

Additional observations from a re-analysis of the deposited data

How the results depend on the processing

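Of the 6 DUSP calls, those of Dusp2 and Dusp5 kept an FDR under 0.05 under every alternative that tested them. With only genes without exons on the other strand, which leaves out Dusp5, Dusp1, Dusp3 and Dusp8, 4 of 6 members were called (39.8% of all genes tested). Testing against 1.5-fold with glmTreat left 2 members called, beside 6.35% of all tested genes. It lost the calls of Dusp1, Dusp7, Dusp16 and Dusp4. The FDR of Dusp1 ran from 2.63e-26 over the alternatives to 0.119 in glmTreat, and that of Dusp7 from 8.22e-22 to 0.192. Dusp16 had an unadjusted p of 0.921 in glmTreat. In the main fit, asking also for an absolute log2 fold change above 1.5 left 1 member. Leaving out each library gave 5 to 6 calls among the members (30.7% to 36.5% of all tested genes), Dusp4 being the call lost. Estimates near 0 changed sign: with 1 library left out, Dusp3 ran from −0.012 to 0.036, Dusp8 from −0.0083 to 0.17 (both lowest without DMSO replicate 1) and Dusp6 from −0.22 to 0.099 (above 0 without DMSO replicate 2 and, at 0.014, without GSI replicate 2). Dusp10 was called with the 16 runs as separate samples (FDR 0.00834, up to 1.00 elsewhere), which treats runs of 1 library as replicates.

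With glmTreat (6.35% of all genes) the calls were 0 MAP kinases, 0 MAP2K, MAP3K and TAB genes, 0 MAPK-activated kinases, 0 other phosphatases, 2 Ras-ERK brakes, 3 ERK-output transcripts and 2 other DUSP genes. With the 16 runs (67.8% of all genes) they were 20 of 27 MAP2K, MAP3K and TAB genes and 10 MAPK-activated kinases, and DESeq2 (28.4% of the genes to which it gave an adjusted p) called 3 other DUSP genes. Leaving out each library, with the shares of all genes given above, called 4 to 5 MAP kinases, 10 to 12 MAP2K, MAP3K and TAB genes, 6 MAPK-activated kinases, 7 to 11 brakes, 8 to 10 ERK-output transcripts, 3 to 5 other DUSP genes and 1 to 3 other phosphatases. With the longest transcript as length, 2 ranks differed in each group.

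Replicate numbers were shared between the groups, but the correlation of the deviations of same-numbered libraries was 0.155 with only 2 pairs, so the pairing was not taken as given. With the replicate block 6 members were called, as without it, and 6444 of all tested genes (48.8%) in place of 5392, with 16 MAP2K, MAP3K and TAB genes in place of 13, 7 other DUSP genes in place of 5, 11 brakes in place of 10 and the counts of the other lists as they were. With 2 libraries a group, where 1 was left out the lone library was assumed to vary like the other group. Depth limited Dusp6 most.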
